A study of Rattus norvegicus with 9 samples.

Results

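Endothelial and splenic sinus genes were examined in the spleens of rats given thioacetamide (TAA) with celecoxib, rats given TAA alone and control rats. The genes were chosen by symbol from a list of 10, namely Pecam1, Cdh5, Kdr, Flt1, Tek, Stab1, Stab2, Lyve1, Eng and Vwf. The gene tables held 9 of these 10 among 34408 gene entries, each in 1 row, and no row carried the symbol Pecam1, which is not analysed here. TAA is a liver toxin that produces cirrhosis with an enlarged spleen, and celecoxib inhibits cyclooxygenase 2. Per the labels, the TAA dose was 200 mg/kg, injected intraperitoneally every 3 days, in the opening 8 weeks, and was lowered to 100 mg/kg in the following 8 weeks. The TAA+celecoxib rats had the same injections and also 20 mg/kg of celecoxib per day over the later 8 weeks. The control rats are labelled only as control, all rats are labelled as wild type (WT), while strain, sex and age were not given in the sources used here. Each group has 3 RNA-seq libraries from spleen. The labels do not say that each library came from a separate animal, so each p-value sets a difference against a spread between libraries that may be technical.

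Vascular endothelium lines all blood vessels and is held together by VE-cadherin junctions, while VEGF and angiopoietin receptors control its growth and quiescence. In the red pulp of the spleen, blood flows out into cords without an endothelial lining and squeezes back through the wall of venous sinuses, whose lining cells carry scavenger receptors of the stabilin family. Congestion of the red pulp by portal hypertension is a known feature of the spleen in cirrhosis. Several of these genes are also known outside endothelium: Stab1 and Lyve1 in macrophages, and Vwf in megakaryocytes and platelets.

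The libraries held 14211789 to 19014761 counts, so that 1 count was worth 0.0526 to 0.0704 CPM (counts scaled to equal library size). All CPM values use library sizes corrected with TMM, a factor that aligns the bulk of genes between libraries. The libraries control 1 and TAA+celecoxib 1 stood apart from the other 7 for these genes, and the main results are therefore also given without them. The pair was picked from the values of these same genes, so p-values and intervals without it are descriptive only. Alb, which encodes albumin of hepatocytes, reached 575 CPM in library TAA 1 and 89.0 CPM in library control 1, with at most 0.701 CPM elsewhere. Markers of pancreatic acinar cells, 6 of 6 listed, summed to 80.6 CPM in library TAA 2 and to 5.67 to 20.6 CPM elsewhere. The labels also carry the cell type splenocytes. All 9 endothelial genes were counted in every library, the lowest value being 43 counts of Lyve1 in TAA+celecoxib 1. Such counts do not decide between whole tissue and a cell preparation. In either, fewer cells of a type and less RNA per cell cannot be told apart.

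Per length of gene, the order of the 9 genes was much the same in the 3 groups. Levels between genes are compared here in FPKM, the deposited unit scaled by gene length and library. Eng, which encodes endoglin, a co-receptor for TGF-beta family ligands, was the highest at 55.6 ± 26.8 FPKM in TAA+celecoxib, 65.5 ± 11.2 in TAA and 49.8 ± 18.6 in control (SD, n = 3 each). Stab2, a sinus scavenger receptor for hyaluronan, followed at 21.5 ± 15.4, 38.1 ± 15.6 and 23.1 ± 17.5 FPKM in the same order of groups. Cdh5, which encodes VE-cadherin, came after it at 20.4 ± 7.78, 30.8 ± 10.5 and 22.0 ± 9.74 FPKM. These 3 genes thus led in each group. The 3 genes Kdr, Tek and Stab1 had means of 11.05 to 18.4 FPKM, and their order among themselves was not the same in each group. Flt1 had means of 7.45, 9.84 and 8.03 FPKM and Vwf means of 4.98, 6.46 and 5.51 FPKM in TAA+celecoxib, TAA and control. Lyve1, a hyaluronan receptor best known from lymphatic vessels, was the lowest at 1.76 ± 0.896, 2.81 ± 1.96 and 2.05 ± 0.801 FPKM. Stab2 and Cdh5 differed by less than their SDs, whereas Lyve1 lay below Flt1 and Vwf in each of the 9 libraries.

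The promoter windows of 4 genes are shown because these genes span the range of the pattern described next, from Stab2, which varied most between libraries, to Eng, which varied less. RefSeq's table for the build GRCr8 held a window of 300 bases (250 before the start and 50 after it) for 6 of the 9 genes. Windows are written 5′ to 3′ on the strand of the gene, and capitals mark AGGAAG, read on either strand, a core of sites of the ETS family of transcription factors, which includes regulators of endothelial genes.
Stab2, chr7:23320513-23320812, minus strand: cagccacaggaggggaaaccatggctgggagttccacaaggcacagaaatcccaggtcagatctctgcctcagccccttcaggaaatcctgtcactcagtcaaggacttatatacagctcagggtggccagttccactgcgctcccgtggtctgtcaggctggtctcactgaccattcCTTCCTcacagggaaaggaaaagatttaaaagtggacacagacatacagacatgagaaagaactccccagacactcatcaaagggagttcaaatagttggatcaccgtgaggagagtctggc
Stab1, chr16:6367310-6367609, minus strand: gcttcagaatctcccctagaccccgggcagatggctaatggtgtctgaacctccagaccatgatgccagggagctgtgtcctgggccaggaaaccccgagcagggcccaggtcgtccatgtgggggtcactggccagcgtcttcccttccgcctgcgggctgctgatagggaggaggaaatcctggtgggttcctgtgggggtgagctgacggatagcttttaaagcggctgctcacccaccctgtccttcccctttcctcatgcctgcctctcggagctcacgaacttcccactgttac
Flt1, chr12:12333180-12333479, plus strand: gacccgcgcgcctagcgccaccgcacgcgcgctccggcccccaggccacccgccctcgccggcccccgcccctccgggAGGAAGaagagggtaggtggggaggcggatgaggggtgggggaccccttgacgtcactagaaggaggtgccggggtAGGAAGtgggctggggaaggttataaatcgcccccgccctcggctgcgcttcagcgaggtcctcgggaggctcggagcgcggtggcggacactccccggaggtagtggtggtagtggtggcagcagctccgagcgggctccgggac
Eng, chr3:36332029-36332328, plus strand: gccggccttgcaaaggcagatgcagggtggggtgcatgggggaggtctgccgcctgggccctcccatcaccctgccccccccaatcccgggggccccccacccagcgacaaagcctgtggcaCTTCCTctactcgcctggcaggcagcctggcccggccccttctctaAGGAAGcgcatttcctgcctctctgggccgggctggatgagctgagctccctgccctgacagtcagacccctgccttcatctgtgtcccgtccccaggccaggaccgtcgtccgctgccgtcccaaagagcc
The letters AGGAAG were found in 4 of the 6 windows, those of Stab2, Flt1, Eng and Lyve1, against 34.5% of all 33469 windows of the same length. A GATA family core, AGATAA, read on either strand, was in 0 of the 6 windows and in 11.6% of all windows. The Stab2 window lies 22071 bases inside the outermost end of its RefSeq gene and is not at its outermost start, while the Stab1 start lies 15 bases and the Eng start 89 bases from that end. GC content was 51.7% for Stab2 and 61.0% for Stab1, against 72.7% for Flt1 and 68.7% for Eng, with a median of 51.7% over all windows. A match of letters is a description and does not show binding.

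The genes varied widely between libraries of the same group, with the same libraries low in each gene. In all 9 genes the lowest 2 of the 9 libraries were control 1 and TAA+celecoxib 1, an arrangement found in 17.0% of the 15954 genes tested. The same 2 libraries were the highest 2 in another 17.0% of the genes tested. The pair thus stood apart in many other genes too, in both directions. TAA+celecoxib 1 was the lowest library for Flt1, Tek, Stab1, Stab2 and Lyve1, and control 1 for the other 4. TAA 3 was the highest library for 6 genes (Cdh5, Flt1, Tek, Stab1, Stab2 and Lyve1), against 14.9% of all genes tested. Kdr was highest in control 3, Eng in TAA+celecoxib 3 and Vwf in TAA 2.

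Among the junction and surface proteins, Cdh5 (ENSRNOG00000013324, chromosome 19, 1023683 to 1074365) had 47.3, 97.7 and 102.6 CPM in TAA+celecoxib rats, 94.4, 107.4 and 172 CPM in TAA rats, and 46.9, 98.1 and 123 CPM in control rats. Apart from the low control 1 and TAA+celecoxib 1 and the high TAA 3, its libraries lay close together and the groups overlapped. Eng (ENSRNOG00000050190, chromosome 3, 11679530 to 11717485) had 89.1, 170.3 and 250.1 CPM in TAA+celecoxib rats, 174, 189 and 237 CPM in TAA rats, and 88.4, 192 and 176 CPM in control rats. TAA+celecoxib thus held both the highest Eng library and 1 of the lowest pair. Vwf (ENSRNOG00000019689, chromosome 4, 158088505 to 158219523), the platelet-tethering protein stored by endothelium, had 32.5, 47.3 and 53.2 CPM in TAA+celecoxib rats, 54.5, 60.6 and 57.3 CPM in TAA rats, and 31.6, 59.8 and 55.6 CPM in control rats. It was the steadiest of the 9 genes, and its TAA+celecoxib libraries all lay below the TAA libraries.

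Among the growth factor receptors, Kdr (ENSRNOG00000046829, chromosome 14, 34727623 to 34787183), the main signalling receptor for VEGF, had 66.9, 93.7 and 111 CPM in TAA+celecoxib rats, 80.5, 76.3 and 97.0 CPM in TAA rats, and 47.2, 95.7 and 158 CPM in control rats. The control libraries enclosed both other groups, and Kdr was the only gene of the 9 whose mean was lower in TAA than in control. Flt1 (ENSRNOG00000000940, chromosome 12, 9034308 to 9205905), a high-affinity VEGF receptor with weak kinase activity, had 18.5, 68.1 and 70.0 CPM in TAA+celecoxib rats, 54.0, 59.6 and 93.3 CPM in TAA rats, and 22.8, 56.8 and 89.2 CPM in control rats. Tek (ENSRNOG00000008587, chromosome 5, 113725717 to 113852799), the angiopoietin receptor also called TIE2, had 33.1, 77.2 and 75.5 CPM in TAA+celecoxib rats, 57.7, 69.5 and 97.7 CPM in TAA rats, and 43.2, 71.3 and 93.2 CPM in control rats. For both receptors the groups overlapped, and within control they ran from one of the lowest to one of the highest libraries of the study.

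Among the scavenger and hyaluronan receptors, Stab2 (ENSRNOG00000038948, chromosome 7, 27369853 to 27552078) had 29.8, 237 and 226 CPM in TAA+celecoxib rats, 235, 213 and 426 CPM in TAA rats, and 34.3, 198 and 297 CPM in control rats. Its highest library was 14.3 times its lowest, the widest span of the 9. Stab1 (ENSRNOG00000018434, chromosome 16, 7222067 to 7250924), a scavenger receptor of sinus endothelium and some macrophages, had 22.8, 101.8 and 110.3 CPM in TAA+celecoxib rats, 106.6, 112 and 173 CPM in TAA rats, and 30.3, 100.8 and 109.5 CPM in control rats. Apart from the low pair and the high TAA 3, the 6 remaining libraries of Stab1 lay between 100.8 and 112 CPM, whatever their group. Lyve1 (ENSRNOG00000026902, chromosome 1, 175663266 to 175676699) had 2.72, 8.14 and 5.53 CPM in TAA+celecoxib rats, 4.26, 6.30 and 15.6 CPM in TAA rats, and 3.70, 8.51 and 6.94 CPM in control rats. It was high in TAA 3 alone, and TAA 1 lay close to the low pair. Gene coordinates are as the files give them. The submitters' processing notes name mRatBN7.2, but whether the coordinates belong to that build was not resolved.

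**Figure D1:**
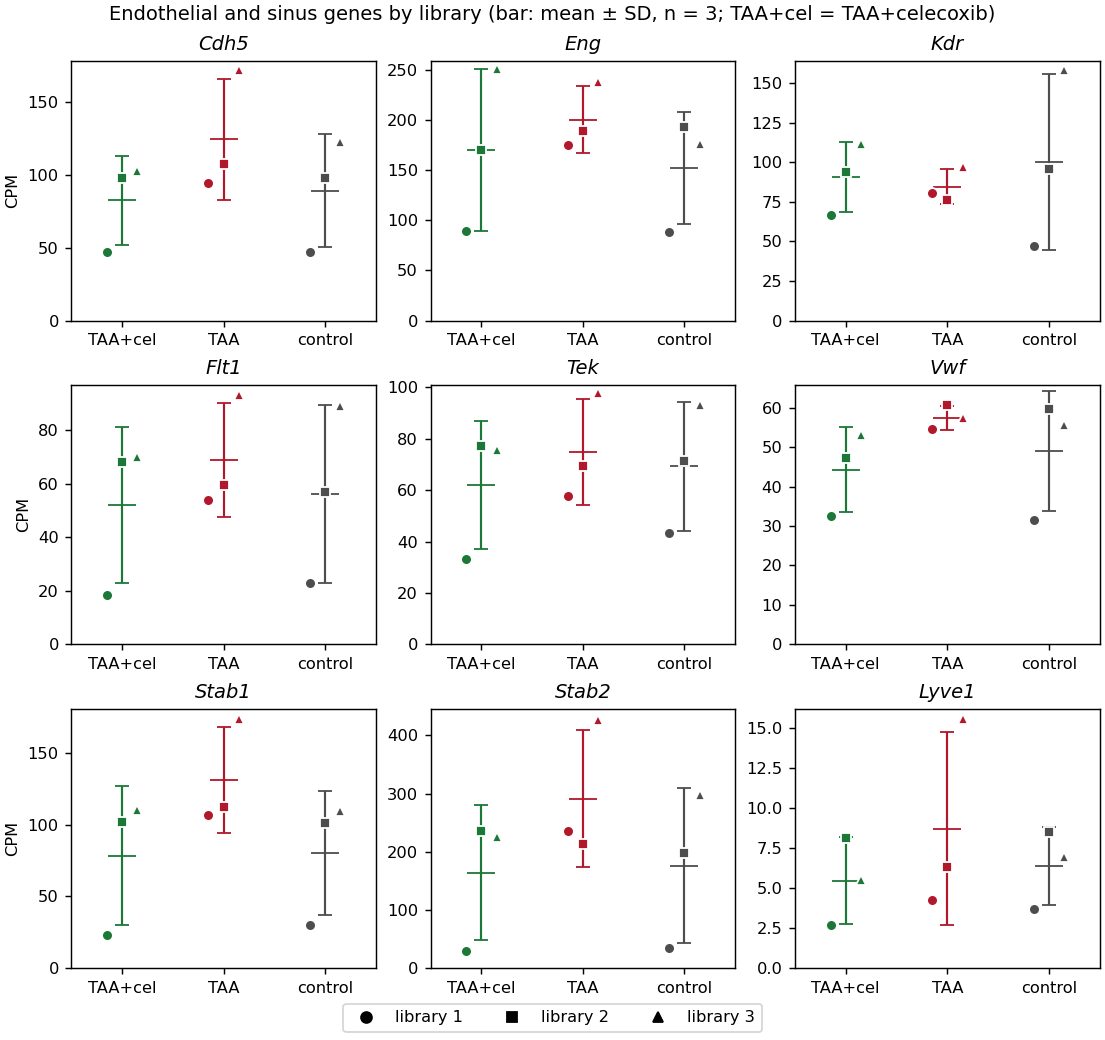
CPM (y axis, from 0) of each of the 9 genes in the libraries of TAA+celecoxib, TAA and control (x axis), with symbols for library number and a bar for the mean ± SD of 3 libraries. The circles of TAA+celecoxib and control, which are TAA+celecoxib 1 and control 1, are the lowest 2 points in every panel, and the triangle of TAA is the highest in 6 panels.

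On the log2 CPM scale, the range over the 9 libraries was 3.83 for Stab2, 2.92 for Stab1, 2.46 for Lyve1 and 2.33 for Flt1. It was 0.94 for Vwf and 1.50 to 1.87 for Cdh5, Eng, Kdr and Tek, where the median over all genes tested was also 0.94. Without control 1 and TAA+celecoxib 1 the ranges were 1.11 for Stab2, 0.78 for Stab1, 0.79 for Flt1 and 0.36 for Vwf, against a median of 0.69 over all genes. Lyve1, at 1.84, then had the widest range.

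TAA against control asks whether the sinus and vessel genes differ in the spleen of rats given TAA. The fitted values of 8 of 9 genes were higher in TAA, but no gene passed the test and no gene's libraries were separated by group. The median log2 fold change was 0.40, against 0.00 over all genes tested. Stab2 averaged 292 ± 117 CPM in TAA rats and 176 ± 133 CPM in control rats (SD, n = 3 each), a log2 fold change of 0.73 with a standard error of 0.83 and an adjusted p of 0.844 in edgeR's quasi-likelihood test. Stab1 averaged 131 ± 36.9 CPM in TAA rats and 80.2 ± 43.4 CPM in control rats, a log2 fold change of 0.70 ± 0.60 (SE). For Cdh5 the means were 125 ± 41.6 CPM in TAA rats and 89.3 ± 38.7 CPM in control rats, with a log2 fold change of 0.48 ± 0.41 (SE). Kdr averaged 84.6 ± 10.9 CPM in TAA rats and 100.4 ± 55.6 CPM in control rats, a log2 fold change of -0.25 ± 0.38 (SE).

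In this comparison edgeR called 0 of 15954 genes at an adjusted p below 0.05 (0%), and at an unadjusted p below 0.05 it had 2.85% of genes higher and 3.15% lower in TAA. DESeq2 called 58 genes and limma-voom 0. None of the 9 was among these by any of the 3 tools, and 0 of 9 had an unadjusted p below 0.05. The adjusted p of the 9 ran from 0.804 to 0.947 with edgeR. In 0 of 9 genes did the TAA libraries lie all above or all below the control libraries, against 6.94% of all genes above and 7.89% below. Single libraries set the size of these values. Stab2 had a log2 fold change of 0.24 without control 1, 0.35 without TAA 3 and 1.33 without control 3. Stab1 had 0.32 without control 1 and 0.45 without TAA 3, while Cdh5 had 0.18 without either of these and 0.78 without control 3. Without control 1 the median log2 fold change of the 9 was 0.12, and without TAA 3 it was 0.18. Without both control 1 and TAA+celecoxib 1 it was 0.11, with 5 of 9 higher and 0 of 9 separated by group (13.0% of all genes were then separated higher and 12.4% lower). Kdr then had a log2 fold change of -0.60 (unadjusted p = 0.0302, adjusted p = 0.831, edgeR), against an unadjusted p of 0.527 with all libraries. The libraries left out held the lowest values of Kdr itself, so its p-value without them is descriptive only.

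TAA+celecoxib against TAA asks how the same genes differ when celecoxib is added. Here the fitted values of 8 of 9 genes were lower in TAA+celecoxib, again with none past the test. This comparison shares the 3 TAA libraries with the first. The median log2 fold change was -0.40, against 0.01 over all genes. Stab2 averaged 164 ± 116 CPM in TAA+celecoxib rats and 292 ± 117 CPM in TAA rats, a log2 fold change of -0.83 ± 0.83 (SE) with an adjusted p of 0.903 (edgeR). Stab1 averaged 78.3 ± 48.2 CPM in TAA+celecoxib rats and 131 ± 36.9 CPM in TAA rats, a log2 fold change of -0.74 ± 0.60 (SE). For Cdh5 the means were 82.6 ± 30.6 CPM in TAA+celecoxib rats and 125 ± 41.6 CPM in TAA rats, with a log2 fold change of -0.59 ± 0.41 (SE). The values of Stab2, Stab1 and Cdh5 were -0.33, -0.30 and -0.32 without TAA+celecoxib 1, and -0.45, -0.48 and -0.29 without TAA 3. Kdr was the exception, at 90.6 ± 22.4 CPM in TAA+celecoxib rats and 84.6 ± 10.9 CPM in TAA rats, with a log2 fold change of 0.10 ± 0.38 (SE).

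Vwf was the gene whose libraries did not overlap. It averaged 44.3 ± 10.7 CPM in TAA+celecoxib rats and 57.5 ± 3.06 CPM in TAA rats, a log2 fold change of -0.37 ± 0.25 (SE) with an unadjusted p of 0.171 and an adjusted p of 0.890 (edgeR). Among all genes tested, 5.03% had TAA+celecoxib libraries all below TAA and 5.87% all above, so 1 of 9 is near the background. Without TAA+celecoxib 1 the log2 fold change of Vwf was -0.19. The closest libraries of the 2 groups were TAA+celecoxib 3 at 53.2 CPM and TAA 1 at 54.5 CPM. Without control 1 and TAA+celecoxib 1, Vwf was again the 1 of 9 genes with TAA+celecoxib all below TAA, against 8.86% of all genes lower and 9.01% higher. In this comparison edgeR called 0 of 15954 genes (0%), with 2.63% higher and 2.46% lower at an unadjusted p below 0.05, DESeq2 called 25 and limma-voom 0, and none of the 9 was among them. Of the 9, 0 had an unadjusted p below 0.05, and the adjusted p ran from 0.890 to 0.974 (edgeR). Without TAA+celecoxib 1 the median log2 fold change was -0.19 and without TAA 3 it was -0.12, whereas without TAA+celecoxib 2 or TAA+celecoxib 3 it was -0.64 and -0.67. Without both control 1 and TAA+celecoxib 1, 5 of 9 genes were lower, and Flt1, Tek and Eng had log2 fold changes of 0.0063, 0.03 and 0.07.

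The third comparison, TAA+celecoxib against control, showed smaller differences than the spread between libraries for every one of the 9 genes. The median log2 fold change was -0.11, against 0.00 over all genes, with 8 of 9 fitted values lower. The log2 fold changes ran from -0.23 for Lyve1 to 0.16 for Eng, and the adjusted p ran from 0.985 to 0.998 (edgeR). Stab2 averaged 164 ± 116 CPM in TAA+celecoxib rats and 176 ± 133 CPM in control rats, and the log2 fold change of -0.10 had an interval of -1.72 to 1.52 (±1.96 SE). For Vwf, the most precisely measured gene, the interval was -0.64 to 0.35, which includes differences in either direction. The interval is not a limit of detection, since a call needs an adjusted p below 0.05 over all genes tested. Both groups hold 1 library of the low pair, and without that pair Vwf was the 1 of 9 genes separated, lower in TAA+celecoxib, against 21.8% of all genes lower and 20.9% higher. In 0 of 9 genes were the libraries separated, against 5.27% of all genes higher and 4.42% lower, while edgeR called 0 of 15954 genes (0%), with 2.96% higher and 2.07% lower at an unadjusted p below 0.05, limma-voom 0 and DESeq2 27, none of them among the 9. Of the 9, 0 had an unadjusted p below 0.05. The median depended on single libraries: it was 0.17 without TAA+celecoxib 1, 0.26 without control 3, -0.01 without control 2, -0.42 without control 1, -0.27 without TAA+celecoxib 2 and -0.32 without TAA+celecoxib 3.

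**Figure D2:**
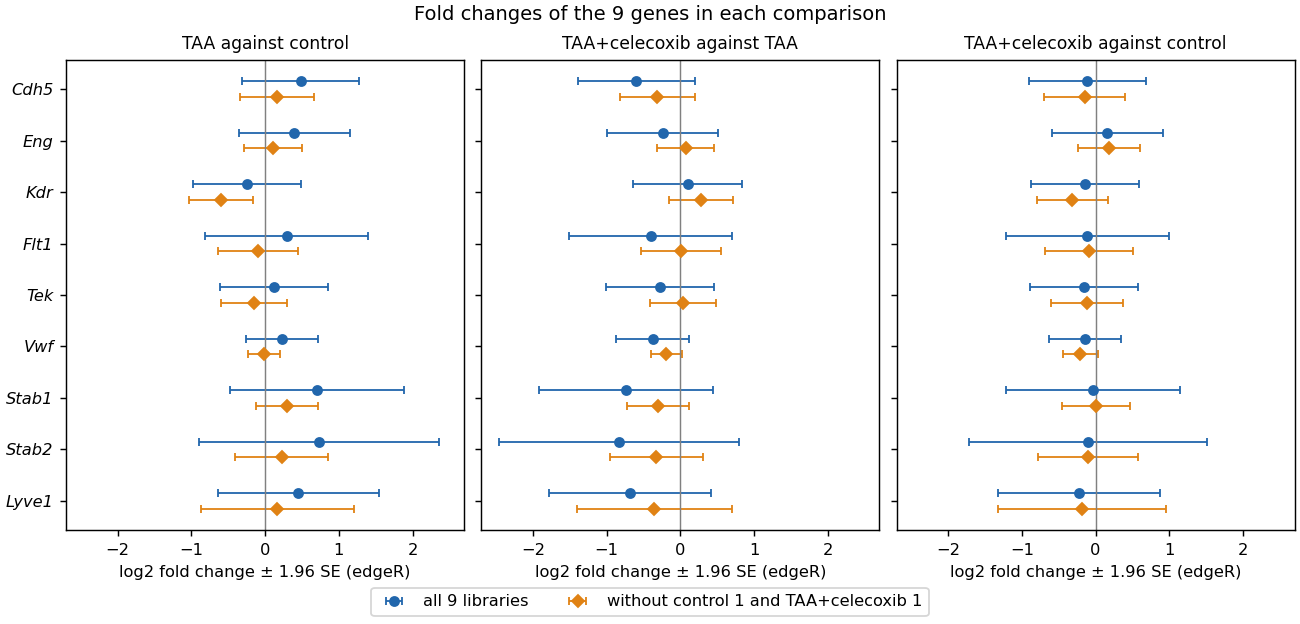
Log2 fold changes (x axis, edgeR, with bars of ±1.96 SE) of the 9 genes in the 3 comparisons, from all 9 libraries (circles) and without control 1 and TAA+celecoxib 1 (diamonds). With all libraries every bar crosses 0. Without that pair the bars are shorter except for Lyve1 in TAA+celecoxib against control, and the Kdr bar in TAA against control, at -0.60, does not cross 0 although its adjusted p is 0.831. The pair was left out for its low values in these same genes, so the diamonds and their bars are descriptive only.

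Dividing each gene by Cdh5 in the same library shows whether the genes kept their proportions. They did not. The ratio of Stab2 to Cdh5 in CPM was 0.630 in TAA+celecoxib 1 and 0.731 in control 1, while the other 7 libraries lay between 1.99 and 2.49. Stab1 showed the same order, at 0.483 in TAA+celecoxib 1 and 0.647 in control 1, against 0.892 to 1.13 elsewhere. Flt1 to Cdh5 was also lowest in this pair, at 0.390 in TAA+celecoxib 1 and 0.486 in control 1, against 0.542 to 0.727 elsewhere. Vwf to Cdh5 was instead highest in the pair, at 0.686 in TAA+celecoxib 1 and 0.674 in control 1. The low pair was thus lower in the stabilins and Flt1 than in Cdh5, and the groups overlapped for all these ratios.

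The ratios of Kdr and Tek to Cdh5 separated the groups, a pattern picked out after the values were seen. Kdr to Cdh5 was 1.41, 0.959 and 1.08 in TAA+celecoxib, 0.853, 0.710 and 0.564 in TAA, and 1.01, 0.976 and 1.29 in control. Tek to Cdh5 was 0.699, 0.790 and 0.736 in TAA+celecoxib, 0.611, 0.647 and 0.568 in TAA, and 0.920, 0.726 and 0.759 in control. For both genes all 3 TAA libraries lay below all libraries of the other groups, control 1 and TAA+celecoxib 1 included. Of the 8 genes compared with Cdh5, 2 were so placed in TAA against control, where 7.21% of all genes were lower and 0.746% higher. The same 2 were higher in TAA+celecoxib against TAA, where 15.6% of all genes were higher and 0.301% lower. In TAA+celecoxib against control 0 of 8 were separated, against 0.953% of all genes higher and 0.727% lower. The 2 comparisons share the TAA libraries and the divisor Cdh5, which was highest in TAA 3. An exact permutation test of 3 against 3 libraries cannot go below p = 0.1, so no test was made on these ratios.

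**Figure D3:**
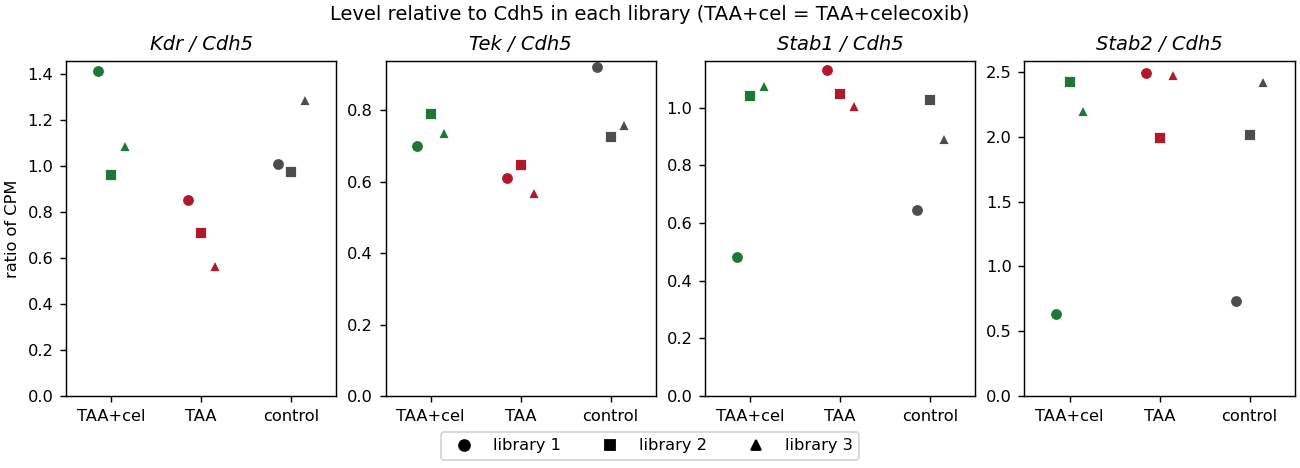
Ratio of the CPM of Kdr, Tek, Stab1 and Stab2 to that of Cdh5 (y axis, from 0) in each library of TAA+celecoxib, TAA and control (x axis), with symbols for library number. The 3 TAA points are the lowest for Kdr and Tek, and TAA+celecoxib 1 and control 1 are the lowest for Stab1 and Stab2.

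Other genes of vessels and sinuses were taken from 9 lists with 103 different genes, of which 101 were in the tables and 96 were tested. They include pan-endothelial genes, angiogenic ligands and receptors, Notch genes, transcription factors, sinus and lymphatic genes, adhesion molecules and genes of vessel tone and clotting. In TAA against control 64 were higher and 32 lower, and the median log2 fold change was 0.12. At an unadjusted p below 0.05, 4 were higher and 2 lower, against 2.85% and 3.15% of all genes, and edgeR called 0. In TAA+celecoxib against TAA 31 were higher and 65 lower, with a median of -0.22, and 1 was higher and 2 lower at an unadjusted p below 0.05, against 2.63% and 2.46%. In TAA+celecoxib against control 39 were higher and 57 lower, with a median of -0.08, and 3 were higher and 3 lower, against 2.96% and 2.07%. In each of these 2 comparisons edgeR also called 0 of the 96. In TAA against control 6 of the 96 were separated higher and 4 lower, against 6.94% and 7.89% of all genes. In TAA+celecoxib against TAA it was 1 higher and 8 lower, against 5.87% and 5.03%. In TAA+celecoxib against control it was 1 higher and 6 lower, against 5.27% and 4.42%. Most list genes named below were picked for a small p, so libraries that do not overlap add no separate support.

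The low pair of libraries did not mark all lists alike. Of the 96 genes, 39 had control 1 and TAA+celecoxib 1 as their lowest 2 libraries, against 17.0% of all genes. This held for 8 of 15 genes of vessel tone and clotting and 6 of 10 receptors and partners, but for 1 of 9 Notch genes and 1 of 8 adhesion genes. In TAA against control, where 50.2% of all genes tested had positive log2 fold changes, the lists differed in direction without any gene passing the test. Positive values were found for 11 of 11 sinus and scavenger genes (median 0.26), 9 of 10 receptors and partners (0.17), 5 of 6 lymphatic genes (0.69), 13 of 15 genes of vessel tone and clotting (0.26) and 12 of 15 transcription factors (0.16). They were found for 5 of 10 ligands (0.04), 6 of 14 pan-endothelial genes (-0.09), 3 of 8 adhesion genes (-0.08) and 1 of 9 Notch genes (-0.17). In TAA+celecoxib against TAA, 48.8% of all genes had negative values. So did 14 of 15 genes of vessel tone and clotting (median -0.38) and 8 of 10 receptors and partners (-0.40). The counts were 8 of 11 for sinus and scavenger genes (-0.22) and 8 of 14 for pan-endothelial genes (-0.27). They were 4 of 6 for lymphatic genes (-0.42), 9 of 15 for transcription factors (-0.11) and 6 of 8 for adhesion genes (-0.07). Ligands had 5 of 10 (-0.005) and Notch genes 4 of 9 (0.01). Mrc1, the mannose receptor of sinus endothelium and macrophages, had 75.3, 384 and 261 CPM in TAA+celecoxib rats, 375, 312 and 879 CPM in TAA rats, and 104.4, 333 and 356 CPM in control rats. Mrc1, picked after its values were seen, was low in the same pair as the stabilins and highest in TAA 3. Of the 11 tested genes of its list, 5 had that pair lowest and 5 were highest in TAA 3. Cldn5, a tight junction gene of endothelium, had 0 counts in all libraries.

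The ligands of the receptors did not all share that pattern. Vegfa, the main ligand of Kdr, had 54.2, 53.0 and 79.1 CPM in TAA+celecoxib rats, 71.9, 43.9 and 54.4 CPM in TAA rats, and 71.1, 75.1 and 83.4 CPM in control rats, with a log2 fold change of -0.43 ± 0.21 (SE) in TAA against control (adjusted p = 0.788, edgeR). Vegfd, a ligand of Kdr in humans and of the lymphatic receptor Flt4, had 25.9, 32.1 and 33.5 CPM in TAA+celecoxib rats, 20.9, 22.1 and 34.2 CPM in TAA rats, and 44.6, 42.8 and 34.7 CPM in control rats. All control libraries of Vegfd lay above all others, the closest pair being control 3 and TAA 3. Angpt1, the agonist of Tek, had 2.79, 18.0 and 8.35 CPM in TAA+celecoxib rats, 10.5, 12.7 and 17.9 CPM in TAA rats, and 2.16, 7.17 and 8.02 CPM in control rats. Its TAA libraries all lay above the controls, with a log2 fold change of 1.24 ± 0.65 (SE) and an adjusted p of 0.788 (edgeR), and its lowest values were in control 1 and TAA+celecoxib 1. Angpt2, the context-dependent antagonist, had 7.03, 10.3 and 18.5 CPM in TAA+celecoxib rats, 13.1, 26.7 and 13.0 CPM in TAA rats, and 7.40, 15.3 and 11.3 CPM in control rats, with overlap throughout.

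The listed genes with an unadjusted p below 0.05 missed the adjusted threshold, and they pointed in both directions. In TAA against control they were Wnt2, Mmrn1, Reln and Ace, higher in TAA, and Vegfd and Sox17, lower. Between TAA+celecoxib and TAA they were S1pr1, higher in TAA+celecoxib, and Shc1 and Ace, lower. Between TAA+celecoxib and control they were Tal1, Wnt2 and Reln, higher in TAA+celecoxib, and Egfl7, Robo4 and Notch4, lower. Ace, the angiotensin-converting enzyme of endothelium, had 18.5, 18.0 and 21.8 CPM in TAA+celecoxib rats, 27.9, 26.4 and 70.3 CPM in TAA rats, and 18.6, 23.0 and 27.9 CPM in control rats. Its TAA+celecoxib libraries all lay below the TAA libraries, with a log2 fold change of -1.10 ± 0.36 (SE, adjusted p = 0.890, edgeR), and TAA 3 was far above the others. Mmrn1, a secreted protein of platelets and lymphatic endothelium, had 5.89, 28.0 and 23.4 CPM in TAA+celecoxib rats, 23.7, 30.9 and 46.4 CPM in TAA rats, and 3.70, 10.8 and 17.2 CPM in control rats. TAA lay above control in every library (log2 fold change 1.67 ± 0.64 SE, adjusted p = 0.788, edgeR). Sox17, a transcription factor of arterial endothelium, had 17.8, 10.9 and 11.7 CPM in TAA+celecoxib rats, 8.88, 10.5 and 8.98 CPM in TAA rats, and 17.9, 11.6 and 13.4 CPM in control rats. It ran against most of the 9 genes, being lowest in TAA and highest in control 1 and TAA+celecoxib 1.

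S1pr1, a sphingosine-1-phosphate receptor of endothelium and lymphocytes, had 352, 213 and 314 CPM in TAA+celecoxib rats, 202, 243 and 189 CPM in TAA rats, and 288, 272 and 241 CPM in control rats, with a log2 fold change of 0.47 ± 0.19 (SE) in TAA+celecoxib against TAA. It was higher in TAA+celecoxib, where 8 of the 9 genes were lower, and the libraries overlapped. Egfl7, a secreted protein of endothelium, had 35.1, 24.6 and 32.9 CPM in TAA+celecoxib rats, 34.8, 31.0 and 41.6 CPM in TAA rats, and 47.3, 40.4 and 44.6 CPM in control rats. Its TAA+celecoxib libraries all lay below control (log2 fold change -0.51 ± 0.17 SE, adjusted p = 0.911, edgeR). Reln, a secreted protein of lymphatic endothelium, had 14.9, 21.5 and 8.74 CPM in TAA+celecoxib rats, 13.9, 10.96 and 11.3 CPM in TAA rats, and 8.88, 6.39 and 6.09 CPM in control rats. TAA lay above control in every Reln library, and TAA+celecoxib had a log2 fold change of 1.08 ± 0.32 (SE, adjusted p = 0.911, edgeR) against control, with overlap.

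Wnt2, a Wnt ligand known from liver sinus endothelium, was low throughout, at 1.01, 4.49 and 0.282 CPM in TAA+celecoxib rats, 2.91, 0.274 and 2.25 CPM in TAA rats, and 0.0616, 0.278 and 0.114 CPM in control rats. Tal1, a transcription factor of blood and endothelial lineages, had 112, 247 and 41.7 CPM in TAA+celecoxib rats, 175, 45.2 and 86.9 CPM in TAA rats, and 52.6, 38.5 and 20.7 CPM in control rats. Both were high in TAA+celecoxib 2 and TAA 1, the libraries with the highest sums of erythroid markers. Notch4, a Notch receptor of endothelium, had 67.2, 35.1 and 36.3 CPM in TAA+celecoxib rats, 57.9, 58.4 and 83.0 CPM in TAA rats, and 59.6, 89.3 and 91.4 CPM in control rats. Robo4 was at most 1.56 CPM in any library, and Shc1 lay between 106 and 131 CPM in all 9.

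The sum of macrophage markers was low and high in the same libraries as most of the 9 genes. Macrophage markers, 14 of 15 listed genes, summed to 2545, 5584 and 5419 CPM in TAA+celecoxib rats, 6795, 6716 and 8839 CPM in TAA rats, and 3118, 6057 and 6021 CPM in control rats, and 11 of 14 had control 1 and TAA+celecoxib 1 as their lowest 2 libraries. Cd163, a scavenger receptor of red pulp macrophages, had 125, 692 and 441 CPM in TAA+celecoxib rats, 735, 660.4 and 1415 CPM in TAA rats, and 147, 564 and 489 CPM in control rats. Marco was at 0 CPM in TAA+celecoxib 1 and at most 5.26 CPM elsewhere, and Vsig4 at 0.432 to 6.27 CPM. The macrophage sum and the stabilins were thus low in the same pair and highest in TAA 3. Among single macrophage markers, 8 of 14 were highest in TAA 3, against 14.9% of all genes, and the rest peaked elsewhere. For the macrophage sum, TAA also lay above both other groups, whereas the stabilins overlapped. In TAA against control 5 of 14 tested macrophage genes were separated higher and 0 lower, against 6.94% and 7.89% of all genes. In TAA+celecoxib against TAA 6 of 14 were separated lower and 0 higher, against 5.03% and 5.87%.

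Megakaryocyte and platelet markers, 12 of 12 listed with Gp1bb at 0 in all libraries, summed to 217 to 310 CPM in TAA+celecoxib rats, 361 to 425 CPM in TAA rats and 181 to 305 CPM in control rats. TAA lay above both other groups for this sum, and 7 of 10 tested genes had TAA libraries all above control, against 6.94% of all genes. Vwf overlapped between TAA and control, but both Vwf and this sum were lower in all TAA+celecoxib libraries than in all TAA libraries. T cell markers, 9 of 9 listed, summed to 690 to 982 CPM in TAA+celecoxib rats, 624 to 748 CPM in TAA rats and 837 to 1075 CPM in control rats, and B cell markers, 7 of 7, to 1687 to 3491, 1674 to 2296 and 2238 to 2673 CPM. TAA+celecoxib 1 and control 1 held the highest T cell sums of their groups and of the study, and the highest B cell sums of their groups. Of the 9 T cell genes, 7 had TAA libraries all below control and 0 all above, against 7.89% and 6.94% of all genes. Ccl21, a chemokine of the T cell zone and lymphatic endothelium, had 1986, 562 and 1074 CPM in TAA+celecoxib rats, 930.2, 766 and 919 CPM in TAA rats, and 2702, 845 and 788 CPM in control rats, and was thus highest where the stabilins were lowest. Smooth muscle and pericyte markers, 10 of 10, summed to 781 to 947, 844 to 1297 and 834 to 1138 CPM in TAA+celecoxib, TAA and control. Erythroid markers, 7 of 8 listed, summed to 1399, 4326 and 535 CPM in TAA+celecoxib rats, 3752, 412 and 1624 CPM in TAA rats, and 718, 303 and 102.5 CPM in control rats. All 7 had positive log2 fold changes in TAA against control (median 2.34) and in TAA+celecoxib against control (median 2.55), with 2 and 5 of 7 at an unadjusted p below 0.05 and 0 called by edgeR. The sums spanned a wider range than any of the 9 genes, and 0 of 7 had control 1 and TAA+celecoxib 1 lowest. The part of these cell types in the values of the 9 genes was not tested.

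**Figure D4:**
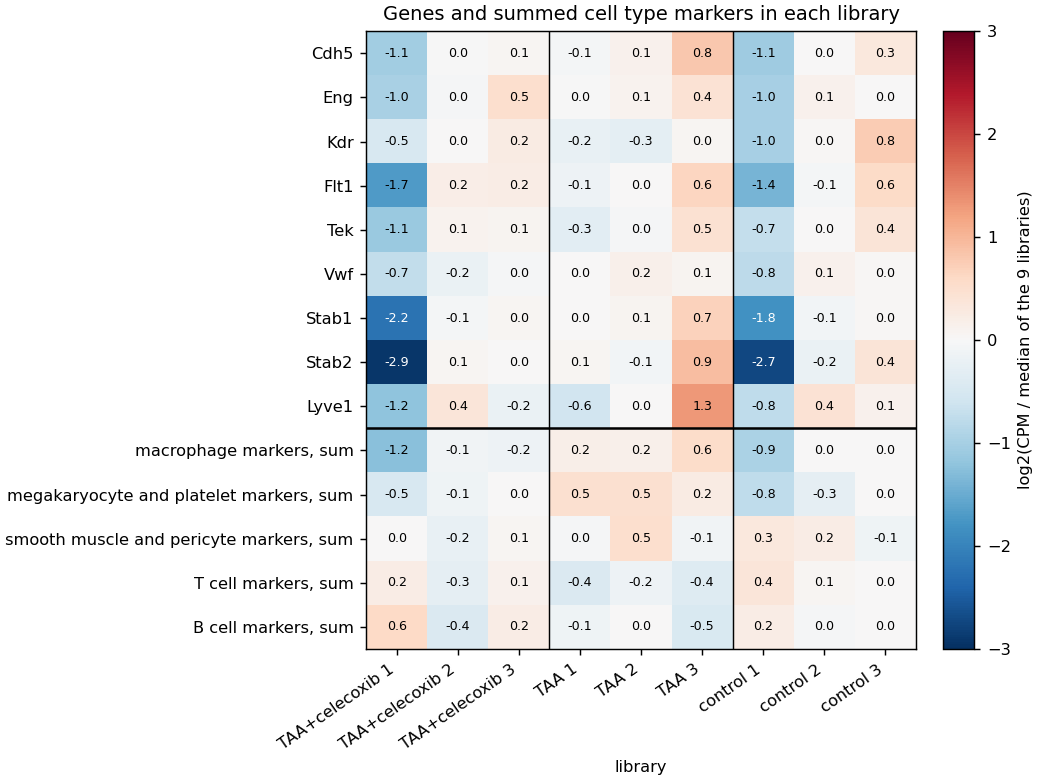
Log2 ratio of the CPM in each library (columns) to the median of the 9 libraries, for the 9 genes and for the summed markers of 5 cell types (rows, separated by a line). TAA+celecoxib 1 and control 1 are at -2.92 and -2.72 for Stab2 and at -1.24 and -0.95 for the macrophage sum, and above 0 for the T and B cell sums.

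Genes with the most similar profiles were found by the root mean square difference between centred log2 CPM over the 9 libraries, among 15945 other genes tested. For the mean of the 9 genes, whose own root mean square deviation was 0.63, the closest were Ehd2 (0.06), Robo2 (0.10), Amotl1 (0.11), Gab1 (0.12) and Axl (0.12). Without control 1 and TAA+celecoxib 1 these 5 ranked 8, 21, 31, 176 and 235 among the same genes. Single genes had their closest match in Spred1 for Cdh5 (0.06), Wasf2 for Vwf (0.06), Ralgapa2 for Tek (0.10), Lmo7 for Flt1 (0.10), Gdpd2 for Eng (0.11), Tmem170b for Kdr (0.15), Tns1 for Stab1 (0.16), AABR07035437.1 for Stab2 (0.17) and Nek10 for Lyve1 (0.21). Spred1 was also the closest to Cdh5 over the 7 libraries without that pair. The matches of the other genes then ranked lower, at 4 for Flt1, 8 for Tek, 8 for Lyve1 and 12 for Kdr. They ranked 25 for Eng, 26 for Vwf, 45 for Stab1 and 62 for Stab2. These matches describe 9 libraries that share 2 low ones, and nothing was tested on them.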

How the data were processed

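RNA-seq libraries were made from spleen, 3 per group. The submitters' processing notes name HISAT2 2.0.5 and mRatBN7.2, but the counting tool, annotation and strand setting were not given in the sources used here, so reads of overlapping or antisense genes cannot be told apart. The authors' files give each gene a whole-number read count and an FPKM value. Dividing a count by its FPKM and by gene length gave a constant in each library, 0.955 to 1.05 times the count total, so the authors' FPKM is a rescaled count.

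Counts were fitted with edgeR 4.0.16 in R 4.3.3 (quasi-likelihood test, 2-sided, TMM, filterByExpr with its default settings, all 9 libraries, group as the only term). Adjustment over all 15954 tested genes followed Benjamini and Hochberg, with 0.05 as threshold. Alternatives were DESeq2 1.42.0, limma 3.58.1 (voom, and log2 FPKM with 0.1 or 1 added), RLE scaling, no filter, fits of 2 groups, the replicate number as a block, each library left out, and control 1 and TAA+celecoxib 1 left out together. On simulated counts for TAA against control, the test found 22.5% of 200 genes with a 2-fold change (15750 genes in the fit) and 82.5% with a 4-fold change (15760 genes). The changed genes were drawn from all tested genes, with the spread typical of their level, so these shares are not those of the 9 genes. Over the 9 libraries the SD of log2 CPM was 0.36 for Vwf to 1.36 for Stab2, against a median of 0.31 over all genes. No 2 libraries agreed within sampling noise (chi-square per degree of freedom 17.5 to 137 over 36 pairs).

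Deviations of same-numbered libraries from their group means correlated at 0.18 to 0.47 between TAA+celecoxib and control, all 3 over 0.1. Unlike-numbered libraries of these groups ran from -0.40 to 0.13, and TAA+celecoxib 2 correlated with TAA 3 at 0.22. The numbers may thus pair the TAA+celecoxib and control libraries, but these values do not settle it. The labels give no pairing, and control 1 and TAA+celecoxib 1 form 1 of the pairs. Deviations of 3 libraries from their mean sum to 0, so the 3 correlations are not independent of each other. The values reported come from the fit without a block, and the block was an alternative only. The correlations were -0.02 to 0.24 between TAA and control and -0.21 to 0.12 between TAA+celecoxib and TAA.

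The genes named are all 9 members, Vegfa, Angpt1, Angpt2, genes among the 2 with the smallest p in each list and comparison, the 5 genes closest to the members' mean and the 1 closest to each member. Mrc1, Cldn5, Ccl21, Cd163, Marco, Vsig4 and Alb were picked from the lists after their values were seen. The members and lists were chosen with earlier results of these data known. Promoter windows came from RefSeq (GRCr8).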

Additional observations from a re-analysis of the deposited data

How the results depend on the processing

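Under 18 alternatives, 0 members passed the threshold in each setting and comparison, with adjusted p-values of 0.534 or more. Of 486 values of members, 449 kept their direction and 37 were reversed. The calls over all genes were 58, 25 and 27 with DESeq2 in TAA against control, TAA+celecoxib against TAA and TAA+celecoxib against control, where edgeR made 0. It was 1 call (Rpl35al1) in the last of these with only its 2 groups fitted. Leaving out 1 library gave 0 to 1 (LOC100911575, without TAA+celecoxib 2), 0 to 3 (Rpl35al1, LOC103689983 and Fabp5, without TAA 1) and 0 to 2 calls (Rpl35al1 and LOC103689983, without TAA 1). With the replicate block 0 genes were called in the 3 comparisons, and the members' medians were 0.47, -0.60 and -0.09. With it, 2, 3 and 0 members had an unadjusted p below 0.05 (edgeR). The block also raised this count over all genes. In TAA against control it was 1475 of 15954 genes with the block and 957 without it. The share over all genes is not given here for the other comparisons, so the member counts are descriptive only. The block changed no call, but Stab2 was at 1.28 in TAA against control and -1.36 in TAA+celecoxib against TAA with it.

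Without control 1 and TAA+celecoxib 1 together, log2 fold changes turned to -0.093 for Flt1, -0.14 for Tek and -0.016 for Vwf in TAA against control, to 0.0063 for Flt1, 0.032 for Tek and 0.074 for Eng in TAA+celecoxib against TAA, and to 0.0059 for Stab1 in TAA+celecoxib against control.

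With 1 library left out at a time, direction turned for 19 of 27 values. In TAA against control the ranges were -0.13 to 0.39 for Tek, -0.27 to 0.77 for Lyve1, -0.081 to 0.79 for Flt1, -0.0043 to 0.40 for Vwf and -0.58 to 0.24 for Kdr. In TAA+celecoxib against TAA they were -0.67 to 0.0011 for Flt1, -0.46 to 0.027 for Tek, -0.63 to 0.071 for Eng, -0.075 to 0.28 for Kdr and -1.08 to 0.047 for Lyve1. In TAA+celecoxib against control they were -0.42 to 0.19 for Cdh5, -0.49 to 0.34 for Kdr, -0.48 to 0.39 for Flt1, -0.41 to 0.14 for Tek, -0.42 to 0.40 for Stab1, -0.59 to 0.50 for Stab2, -0.63 to 0.10 for Lyve1, -0.38 to 0.037 for Vwf and -0.23 to 0.47 for Eng. Ranges that kept their sign were 0.24 to 1.33 for Stab2, 0.32 to 0.996 for Stab1, 0.18 to 0.78 for Cdh5 and 0.12 to 0.60 for Eng in TAA against control, and -1.19 to -0.33 for Stab2, -1.07 to -0.30 for Stab1, -0.78 to -0.29 for Cdh5 and -0.53 to -0.19 for Vwf in TAA+celecoxib against TAA. The cause of these turns was not tested. With 3 libraries a group a 2-fold change was mostly missed in simulation of genes drawn from all those tested. The lack of calls thus does not show that levels were alike.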
